A study of Rattus norvegicus with 6 samples.

Results

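The accessible sites (ACS) described here lie inside genes close to the gene start. They are the distinct ATAC-seq sites that the deposited annotation puts in the proximal class and inside the body of the nearest gene, and 3997 of the 101603 distinct ACS (3.93%) met this rule, in 3356 genes. ATAC-seq uses the transposase Tn5, which inserts adapters where DNA is free of nucleosomes, so that the number of Tn5 integrations in a site measures how accessible it is. The libraries were made from dissociated cells of whole pancreatic islets of Sprague-Dawley rats, in which beta cells that secrete insulin are the main cell type beside alpha, delta and other cells. The 3 adult libraries (replicates 4, 5 and 6) came from 1 male rat of about 3 months each, and the 3 P10 libraries (replicates 1, 2 and 3) from pups of both sexes at postnatal day 10, with a few pups pooled from a litter for each library. Islets were isolated with collagenase, purified on a density gradient, hand-picked and cultured for a short time, and no library received a treatment. Age, sex and the use of single rats against pooled litters go together in this design and cannot be told apart.

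The stretch just downstream of a gene start usually covers the first exon and the beginning of the first intron. Such stretches are known to hold enhancers and alternative promoters, and in islets several genes for hormones and transcription factors carry control elements there. Promoters themselves are often rich in CpG dinucleotides and open in most cell types, whereas sites away from the start tend to be opened by transcription factors in particular cell types or at particular stages. Rat islets mature between the P10 and the adult stage, when pups are weaned from milk and beta cells gain their response to glucose and divide less, and the comparison of both ages asks which sites change over that time.

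The annotation lists distances from the gene start of 1001 to 9998 bp for these sites. The nearest sites inside genes beyond these limits are listed at 999 bp in the TSS class and at 10001 bp in the distal class, apart from 1 site at 1000 bp that is listed as distal. Measured from the midpoint of the site, the median distance was 5348 bp. The sites were 202 to 2016 bp wide with a median of 351 bp, and 65 of them reached 1000 bp. The genes had a median length of 28440 bp, and 612 of the sites lay in genes shorter than 10 kb. A typical site therefore sat in the first part of its gene, at a median of 16.4% of the gene's length, but 134 sites were within 1 kb of the gene end. The gene spans are those of the deposited annotation for Rn5, and 23 sites are listed in genes longer than 1 Mb, up to 22.9 Mb, so that "inside" rests on doubtful gene models there. Another 5 sites are listed with more than 1 nearest gene.

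The libraries held 7916919 to 11903909 integrations in ACS in adults and 13491534 to 21168463 at P10, so the adult values carry the larger counting error. Values are given as CPM, the count at a site scaled to a library of 1000000 integrations in ACS after TMM normalization, which sets the typical site to the same level in all libraries. Chromosome X held 85 of the sites, with 9.41% called Up and 7.06% called Down by the test given below, against 6.88% and 9.20% of all ACS on that chromosome. Over the 3997 sites, log2 CPM correlated with a Pearson r of 0.903 to 0.919 between adult libraries, 0.918 to 0.942 between P10 libraries and 0.840 to 0.890 between the ages, as a description of points that share libraries. No pair of replicates agreed within counting noise, since the chi-square per degree of freedom between replicates of an age was 3.09 to 7.12. The 114 sites near beta cell marker genes had the highest summed level of the 10 marker lists. They had 1110 to 1303 CPM in adults and 1037 to 1374 CPM at P10. The alpha cell list was next, with 985 to 1108 CPM in adults over 121 sites. Such sums also depend on how many sites a list has. Sites near *Mafa* and *G6pc2* were not in the table.

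More of the proximal sites inside genes were called as gaining than as losing accessibility with age. By edgeR's quasi-likelihood test with p below 0.05 and a Benjamini-Hochberg adjusted p below 0.2 over all ACS, 607 of 3997 sites (15.2%) were more accessible in adults (Up) and 261 (6.53%) were more accessible at P10 (Down). Among all 101603 ACS, 12.3% were called Up and 6.63% were called Down. The share of Up sites was thus above the background and that of Down sites was near it. The called sites changed by similar amounts in both directions, with a median log2 fold change of 0.88 for Up sites and -0.88 for Down sites, and the extremes were 2.40 and -2.36. At 657 sites all adult libraries were above all P10 libraries (16.4%, against 13.8% of all ACS), and at 434 sites they were below all of them (10.9%, as in 10.9% of all ACS). Over all 3997 sites the median log2 fold change was 0.01, beside -0.01 over all ACS. The study, which used edgeR with the same limits, reported the reverse balance over all ACS, with more Down than Up. The cause of this difference was not tested. By position, the study found that Up ACS were enriched at distal and intronic sites, relative to Down ACS, which were enriched at promoters.

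The balance of both directions depends on how libraries are scaled. With TMM scaling 69.9% of the called sites were Up, but with the column sums as library sizes the calls were 524 Up and 425 Down (55.2% Up), and with cyclic loess 546 Up and 382 Down (58.8% Up). With the total reads sequenced as library sizes, which puts the median of all ACS at -0.84, only 31 sites were Up (1.27%) and 2402 were Down. Every direction given here is therefore relative to the typical ACS. Leaving out P10 replicate 2 lowered the counts to 375 Up and 131 Down, leaving out adult replicate 4 or P10 replicate 3 gave 403 Up each, and leaving out adult replicate 6 gave 170 Down.

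The share of Up sites ran unevenly along the gene. It was 10.9% at sites with a midpoint under 2 kb from the start, 13.5% at 2 to 3 kb, 15.9% at 3 to 5 kb, 17.1% at 5 to 7.5 kb and 16.6% farther inside. The Down share had no such course and lay between 4.68% and 8.87%. Sites upstream of gene starts at the same distances had Up shares of 7.37% to 10.4%, and the 4777 proximal upstream sites had 9.02% Up and 6.97% Down in all. Distal sites inside genes had 17.1% Up and 6.64% Down, and sites of the TSS class within 1 kb of a start had 2.73% Up and 7.87% Down. In genes shorter than 10 kb, 9.15% of the sites were Up and 7.84% were Down, against 16.3% and 6.29% in longer genes. Of the 134 sites within 1 kb of the gene end, 7 were Up and 9 were Down.

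**Figure D1:**
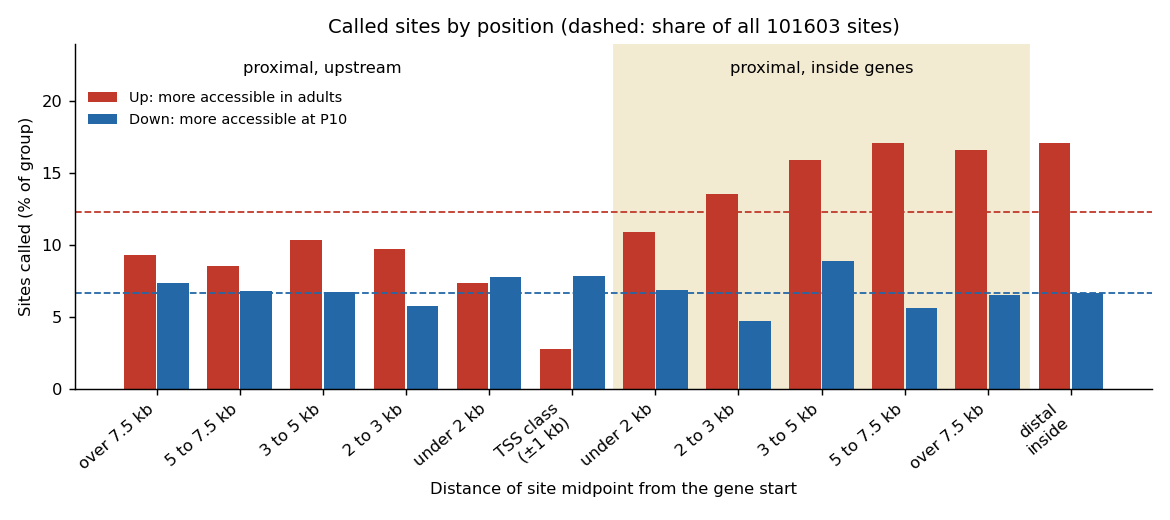
Share of sites called Up (red) or Down (blue) in percent, by distance of the site's midpoint from the gene start. Shaded bars are the proximal sites inside genes, whose Up share runs from 10.9% nearest the start to 17.1% at 5 to 7.5 kb, and dashed lines are the shares over all ACS, 12.3% Up and 6.63% Down.

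Counts of calls depend on how many integrations a site holds. When the sites were split into 5 equal parts by mean count, the Up share was 4.91% in the lowest part, 9.57% in the second and 18.3%, 21.8% and 21.2% in the others. All ACS in the same count ranges had 2.90%, 11.1%, 16.5%, 20.1% and 17.3% Up. The sites inside genes were thus above the other ACS of like depth in 4 of the 5 ranges and below them in the second. The Down share of the sites fell as counts rose, at 9.07%, 7.33%, 6.03%, 5.37% and 4.87%. All ACS had 7.14%, 7.44%, 6.81%, 6.31% and 5.37% Down. With TMM scaling the median log2 fold change itself shifted with count, at -0.19, -0.03, 0.02, 0.08 and 0.07 for the sites. For all ACS it was -0.14, -0.02, 0.05, 0.08 and 0.05, so the shares do not reflect the power of the test alone. In the lowest part Down sites outnumbered Up sites, 72 to 39, and the same held for all ACS there. Peaks were called on the pooled libraries of each age and then joined, and the P10 libraries were the deeper ones. Weak sites that are high at P10 could therefore have entered the table more easily, and the part of this in the Down calls was not tested. The same limit holds for weak Down sites named below, such as *Spock3* with a mean count of 14.5.

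The comparison with upstream sites was also made within each library. The mean log2 CPM of proximal sites inside genes minus that of proximal upstream sites was -0.04, -0.10 and -0.09 in the adult libraries and -0.13, -0.19 and -0.18 in the P10 libraries. Adults were higher by 0.09 without overlap of the groups, and the exact permutation test over the 6 libraries (two-sided) gave p = 0.1, the smallest value that 3 against 3 libraries can reach. Against distal sites inside genes adults differed by 0.32 ± 0.07 and P10 libraries by 0.34 ± 0.08 (SD, 3 libraries each), with overlapping libraries and an exact permutation p of 0.8. The proximal sites inside genes took 3.59%, 3.32% and 3.25% of the integrations in adults and 3.57%, 3.20% and 3.15% at P10, with overlapping libraries and an exact permutation p of 0.5. Their mean log2 CPM minus that of all other ACS was 0.13 ± 0.09 in adults and 0.10 ± 0.12 at P10 (SD, 3 libraries each, exact permutation p = 0.7). Within these sites, integrations within 3 kb of the gene start made up 35.1%, 35.5% and 35.8% in adults and 36.6%, 37.4% and 37.5% at P10. This share was 1.67 percentage points lower in adults without overlap (exact permutation p = 0.1). Over the 5 library-level values tested, the smallest Benjamini-Hochberg adjusted permutation p was 0.25, and none can pass a limit of 0.05 in this design.

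**Figure D2:**
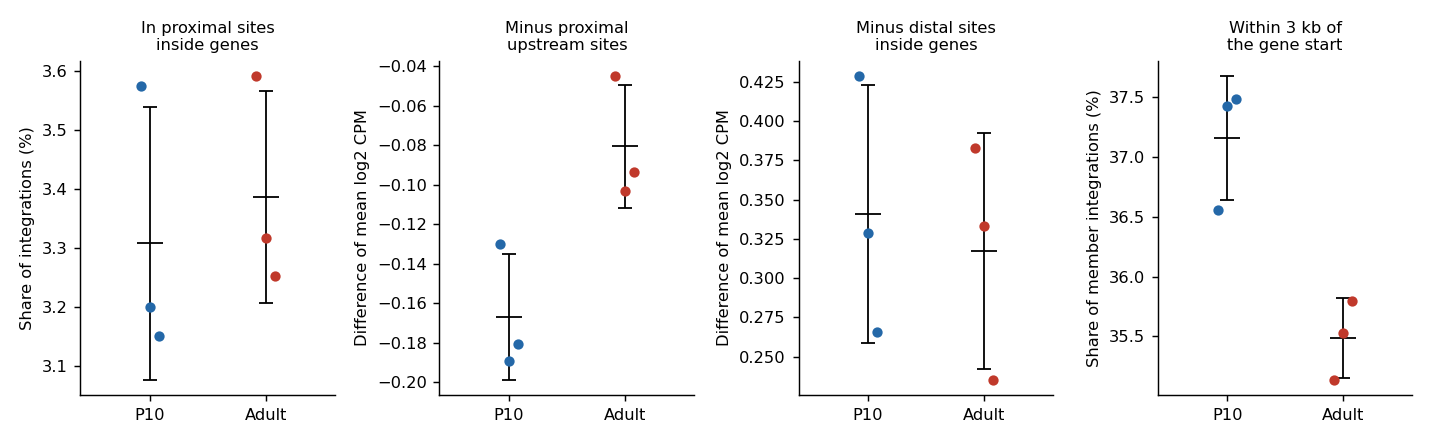
Library-level values at P10 (blue) and in adults (red), with each point a library and the black bar and whiskers the mean ± SD of 3 libraries. The adult points lie above all P10 points for the difference of mean log2 CPM from upstream sites and below them for the share of integrations within 3 kb of the gene start, and overlap them in the other panels.

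The 8 Up sites with the smallest p and separate groups had log2 fold changes of 1.44 to 2.40. The first was 10184 bp inside *Gtf2b*, which encodes the general transcription factor TFIIB, at chr2:267249468-267250018 on Rn5. It had 42.9, 26.1 and 39.4 CPM in adults and 7.95, 8.27 and 9.04 CPM at P10, a log2 fold change of 2.1 ± 0.21 (SE) with an edgeR adjusted p of 2.92e-07. The site in *Skp2*, a subunit of a ubiquitin ligase that removes the cell cycle inhibitor p27, at chr2:77611675-77612147, had 36, 31.6 and 29.9 CPM in adults and 9.48, 7.42 and 7.45 CPM at P10. Its log2 fold change was 2.0 ± 0.20 (SE, edgeR adjusted p = 3.09e-07). In both genes the lowest adult library was far above the highest P10 library.

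A site in *Ift122*, whose product carries cargo within cilia, at chr4:211049765-211050069, rose from 5.48, 5.21 and 4.07 CPM at P10 to 24.9, 21.5 and 21.5 CPM in adults. The site in *Ccrn4l*, the gene of the rhythmic protein nocturnin, at chr2:159767567-159767828, had 4.79, 3.78 and 2.22 CPM at P10 and 25.3, 13 and 18.7 CPM in adults, with a wide spread in both groups. It had the largest log2 fold change of all the sites described here, 2.4 ± 0.28 (SE, edgeR adjusted p = 2.5e-06). A site 2226 bp inside *Atg7*, an enzyme that autophagy requires, had 9.76, 11.1 and 6.7 CPM in adults and 2.28, 1.14 and 2.17 CPM at P10. The others were in *Ccdc104* (1.74 ± 0.22 on the log2 scale), *Ube2ql1* (2.08 ± 0.27) and *Xkr9* (1.44 ± 0.19), and the edgeR adjusted p of all 8 was 1.7e-05 or less. All 8 were called in each fit that left out 1 library.

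The 8 Down sites with the smallest p and separate groups had log2 fold changes of -0.82 to -2.36. The first is at chr4:229948980-229949290 in an unnamed gene on chromosome 4 that is listed under 2 gene identifiers, with 3.07, 5.45 and 4.12 CPM in adults and 8.55, 17.8 and 14.4 CPM at P10. Its log2 fold change was -1.68 ± 0.29 (SE, edgeR adjusted p = 0.000256). A site in *Galnt6*, an enzyme that starts O-linked sugar chains on proteins, fell from 9.95, 7.2 and 5.07 CPM at P10 to 2.35, 2.92 and 2.71 CPM in adults. The site in *Dtx4*, a ubiquitin ligase of the Deltex family that acts in Notch signalling, fell from 26.6, 31.6 and 33.8 CPM to 18.8, 17.8 and 15.5 CPM. In *Fxyd6*, a regulator of the sodium pump, the P10 values of 26.3, 16.4 and 15.2 CPM were above the adult values of 10.7, 9.06 and 8.77 CPM.

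Of the other Down sites, that in *Spock3*, which encodes a matrix proteoglycan, had 0.361, 0.0974 and 0.387 CPM in adults and 1.21, 1.28 and 1.85 CPM at P10, so that the adult libraries held only a few integrations there. Its log2 fold change of -2.36 ± 0.56 was the lowest of all the sites. The sites in *RGD1311863* (-1.65 ± 0.34 on the log2 scale), in the glycogen branching enzyme *Gbe1* (-1.82 ± 0.43) and in the vanin *Vnn3* (-1.18 ± 0.28) also fell. The edgeR adjusted p of these 8 was at most 0.0070, and each kept its call when any 1 library was left out, although *Spock3* lost it with DESeq2.

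**Figure D3:**
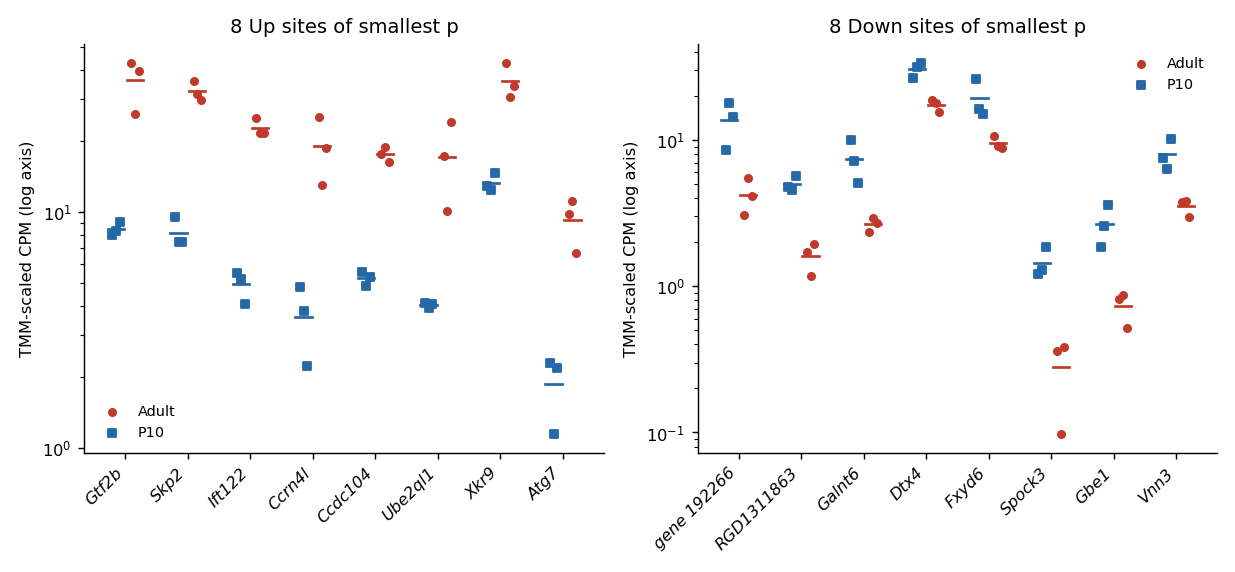
TMM-scaled CPM on a log axis for the 8 Up and the 8 Down sites of smallest p, labelled by their gene, with P10 libraries in blue, adult libraries in red and the group mean as a bar. The groups do not overlap at any of the 16 sites, as the rule required, and log2 fold changes run from 2.40 in *Ccrn4l* to -2.36 in *Spock3*.

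A site of the TSS class was listed for the gene of 2638 of the 3997 sites (66.0%), which allows both to be set side by side. The strongest TSS-class site of the gene was used. The inner site held a median of 0.318 times the CPM of the gene start and exceeded it in 17.3% of cases. Where the inner site was Up, the gene start was Up in 14 of 431 cases (3.25%) and Down in 12 (2.78%), and in 405 cases it was not called. Over all these 2638 sites, 3.07% of the gene starts were Up and 6.03% were Down. Where the inner site was Down, the gene start was Down in 33 of 166 cases (19.9%) and Up in 2. The median log2 fold change of the gene start was 0.02 beside Up sites and -0.17 beside Down sites. Over the 2638 sites the log2 fold changes of the inner site and the start had a Pearson r of 0.186, and 0.207 over the 1841 sites with a mean count of at least 50, as a description of values from the same 6 libraries.

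**Figure D4:**
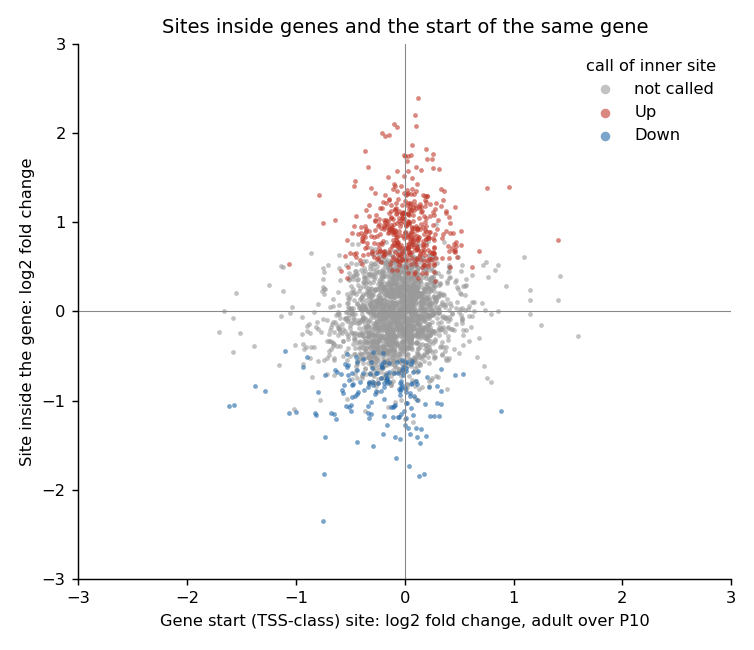
Log2 fold change, adult over P10, of each proximal site inside a gene (y axis) against that of the TSS-class site of the same gene (x axis) for 2638 sites, coloured by the call of the inner site, which separates the colours along the y axis. Down sites (blue) lie more to the left, with a median of -0.17 at the gene start against 0.02 for Up sites (red).

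Promoters were taken from RefSeq (assembly GRCr8) by gene identifier, and 2672 of the 3356 genes (79.6%) had one. A comparison of CpG content between promoters of genes with Up and with Down sites is void, because fewer than 80% of the genes were matched. The 250 bases before the start are shown as examples for 2 genes with an Up site and 2 with a Down site. These sites had the smallest p among those whose gene had both a promoter and a TSS-class site. They lie 10184 bp inside Gtf2b, 9728 bp inside Skp2, 1585 bp inside RGD1311863 and 8726 bp inside Fxyd6, so most are not next to the promoter. None of these 4 gene starts was called, with log2 fold changes of -0.10 in Gtf2b, -0.21 in Skp2, -0.08 in RGD1311863 and -0.31 in Fxyd6. CpG dinucleotides are in capitals, 21 in Gtf2b at chr2:234427484-234427733 (plus strand), 20 in Skp2 at chr2:59916472-59916721 (minus strand), 44 in RGD1311863 at chr1:225520306-225520555 (plus strand) and 12 in Fxyd6 at chr8:54575575-54575824 (plus strand), all on GRCr8 and written 5′ to 3′.
Gtf2b: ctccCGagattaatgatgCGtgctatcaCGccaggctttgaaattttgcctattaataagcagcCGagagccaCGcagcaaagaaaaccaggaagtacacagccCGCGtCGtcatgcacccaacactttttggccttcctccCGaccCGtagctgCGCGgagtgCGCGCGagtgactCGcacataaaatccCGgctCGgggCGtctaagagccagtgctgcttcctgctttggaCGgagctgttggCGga
Skp2: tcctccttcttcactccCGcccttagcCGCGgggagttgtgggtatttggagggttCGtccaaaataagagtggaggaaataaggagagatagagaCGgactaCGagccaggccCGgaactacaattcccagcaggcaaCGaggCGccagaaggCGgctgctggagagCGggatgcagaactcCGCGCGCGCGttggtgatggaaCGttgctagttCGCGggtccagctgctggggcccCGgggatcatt
RGD1311863: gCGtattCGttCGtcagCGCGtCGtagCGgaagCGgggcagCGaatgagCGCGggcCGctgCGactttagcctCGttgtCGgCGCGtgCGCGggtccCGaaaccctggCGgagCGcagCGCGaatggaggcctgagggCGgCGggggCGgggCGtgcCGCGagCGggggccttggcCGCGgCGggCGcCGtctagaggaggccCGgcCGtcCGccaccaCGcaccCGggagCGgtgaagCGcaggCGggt
Fxyd6: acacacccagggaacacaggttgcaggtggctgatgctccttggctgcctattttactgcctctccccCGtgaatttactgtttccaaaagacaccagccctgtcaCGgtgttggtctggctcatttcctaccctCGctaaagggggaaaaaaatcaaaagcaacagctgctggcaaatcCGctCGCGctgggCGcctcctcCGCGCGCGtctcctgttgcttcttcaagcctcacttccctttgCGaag
These promoters ranged from the very CpG-dense window of RGD1311863 to the window of Fxyd6, in which most CpG dinucleotides lie near the start. The Rn5 annotation that placed the site in RGD1311863 lists this gene on the minus strand, unlike the promoter shown. Whether both refer to the same gene start was not tested.

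The gene lists describe the sites by function, and the medians are to be read beside -0.01 over all ACS, with 12.3% Up and 6.63% Down. Islet transcription factors had 32 sites in 25 genes, with 5 Up, 2 Down and a median log2 fold change of 0.06. The site in *Rfx2*, a factor that drives genes of cilia, at chr9:9223138-9223583, rose from 5.95, 2.57 and 4.23 CPM at P10 to 10.8, 10.0 and 9.28 CPM in adults (1.22 ± 0.28 on the log2 scale, edgeR adjusted p = 0.00448). *Myt1l*, a zinc finger factor of neurons and endocrine cells, had 2 Up sites, and the one with the smaller p rose by 0.74 ± 0.27 on the log2 scale. *Foxa2*, which opens chromatin for pancreatic genes, had a Down site 1248 bp inside the gene with 7.67, 7.56 and 5.71 CPM at P10 and 4.52, 4.67 and 3.48 CPM in adults (-0.71 ± 0.27, edgeR adjusted p = 0.111), and its gene start was also Down (-0.52). The *Foxa2* call was lost when the data were fitted without adult replicate 6 or P10 replicate 2 (-0.85 to -0.60), and that of *Myt1l* without adult replicate 4 or P10 replicate 2 (0.56 to 0.90). Here and below, the brackets after such a statement give the range of the log2 fold change over the 6 fits that each leave out 1 library. Gene starts are mostly given in the lists where they were called. Starts that were not called went either way. They went against the called site in *Kcnk16* (-0.37), *Rxra* (-0.35), *Kif11* (-0.25) and *Scg3* (0.14), and with it in *Scgn* (0.38), *Nfil3* (0.28) and *Rfx2* (0.20), for example. The beta cell marker genes *Nkx6-1*, *Slc2a2* and *Slc30a8* held 5 of the sites, none of which was called.

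Insulin, granule and exocytosis genes had 44 sites in 27 genes, with 1 Up and 5 Down (11.4%, against 6.63% of all ACS) and a median of -0.04. The Down site in *Ptprn2*, a protein of the membrane of dense core granules, at chr6:153317881-153318312, had 27.3, 16.3 and 15.9 CPM at P10 and 12.2, 11.2 and 6.57 CPM in adults (-0.98 ± 0.25 on the log2 scale, edgeR adjusted p = 0.0105). In *Scg3*, a granin that helps to form secretory granules, the values were 4.0, 1.93 and 3.7 CPM at P10 and 1.27, 1.17 and 1.03 CPM in adults (-1.47 ± 0.39, edgeR adjusted p = 0.0157). *Snap25*, a SNARE protein needed for vesicle fusion, had a Down site (-0.80 ± 0.31, edgeR adjusted p = 0.116) whose call was lost without adult replicate 6 or P10 replicate 2 (-0.93 to -0.65). The only Up site of the list was in *Scgn*, a calcium-binding protein of endocrine cells, with 4.0, 4.49 and 2.27 CPM at P10 and 11, 6.91 and 5.29 CPM in adults (1.13 ± 0.31). The other 38 sites were not called.

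Glucose sensing and ion channel genes had 22 sites in 18 genes, with 4 Up, 1 Down and a median of 0.12. The Up site of smallest p was in *Kcnk16*, the 2-pore potassium channel TALK-1 of beta cells, at chr15:8576904-8577520 and 1700 bp from the start. It had 22.4, 23.5 and 18.8 CPM at P10 and 46.6, 32 and 39.8 CPM in adults (0.87 ± 0.18 on the log2 scale, edgeR adjusted p = 0.00192), and the groups were well apart. The calcium-activated potassium channel *Kcnn3* (1.2 ± 0.27) and the 2-pore channel *Kcnk3* (1.11 ± 0.28) also had Up sites, each called in all 6 fits without 1 library. *Glud1*, the mitochondrial glutamate dehydrogenase, had 15.6, 30.9 and 16.1 CPM in adults and 13.2, 17.9 and 12.4 CPM at P10, which overlap, and its Up call was lost without adult replicate 5, P10 replicate 1 or P10 replicate 3 (0.13 to 0.71). The *Glud1* call was also lost with column sums, cyclic loess, limma voom, DESeq2 and a mean count of at least 50.

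In G protein coupled receptors and cAMP genes, 2 of 10 sites were Up and 1 was Down. *Adcy8*, an adenylyl cyclase that calcium stimulates, had 17.2, 14.3 and 19.8 CPM at P10 and 32.4, 22.5 and 36.4 CPM in adults (0.83 ± 0.20 on the log2 scale, edgeR adjusted p = 0.00787). *Adcyap1r1*, the receptor for the peptide PACAP, had an Up site (1.01 ± 0.25, edgeR adjusted p = 0.010), whereas *Gipr*, the receptor of the incretin GIP, had a Down site with overlapping values of 10.7, 10.4 and 7.51 CPM at P10 and 6.6, 7.89 and 3.09 CPM in adults. The *Gipr* call was lost without adult replicate 6, P10 replicate 1 or P10 replicate 2 (-0.94 to -0.40). Of the 15 sites in 8 circadian clock genes, 3 were Up and none was Down. They were in *Npas2*, a partner of BMAL1 (1.09 ± 0.28), in *Nfil3*, a repressor of clock output (0.87 ± 0.23), and in *Nr1d2*, the receptor REV-ERB beta (0.63 ± 0.22), and that in *Nr1d2* was lost without adult replicate 6, P10 replicate 2 or P10 replicate 3 (0.46 to 0.87). The hours at which islets were taken are not given in the sources used here.

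Cell cycle genes had 16 sites in 10 genes, with 2 Up and 1 Down. Beside *Skp2*, the Up site was in *Kif11*, a motor of the mitotic spindle (0.59 ± 0.26 on the log2 scale, edgeR adjusted p = 0.173), and it was lost without adult replicate 4, P10 replicate 1 or P10 replicate 2 (0.38 to 0.76), and with column sums, cyclic loess and a mean count of at least 50. *Ccnd1*, the cyclin that drives entry into the cycle, had a Down site at chr1:224967409-224967703 with 7.02, 6.35 and 4.92 CPM at P10 and 2.62, 2.24 and 3.48 CPM in adults (-1.15 ± 0.30, edgeR adjusted p = 0.0145), beside a Down gene start (-0.68). Among insulin, IGF and growth hormone genes none of 21 sites was Up and 1 was Down. The Down site was in *Igf2bp2*, which encodes an RNA-binding protein (-1.21 ± 0.40), and its gene start was Down too (-0.63). Of 10 sites in AP-1 and immediate early genes 1 was Down, in *Fosb*, a subunit of the factor AP-1, with 23.8, 20.8 and 18.4 CPM at P10 and 13.4, 11.1 and 11.3 CPM in adults (-0.81 ± 0.20, edgeR adjusted p = 0.010). The *Fosb* start was also Down (-0.48), and the median of this list was -0.22.

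Signalling genes of the Notch, Wnt, Hippo, TGF-beta and NFAT pathways had 39 sites in 29 genes, with 3 Up, 4 Down and a median of -0.08. *Jag1*, a Notch ligand, had 7.11, 11 and 10.1 CPM at P10 and 2.89, 3.6 and 6.32 CPM in adults (-1.16 ± 0.29 on the log2 scale, edgeR adjusted p = 0.0104), beside a Down start (-0.82). The Wnt receptor *Fzd4* had a Down site (-1.38 ± 0.34), and *Lats2*, a kinase of the Hippo pathway, had 2 Down sites among its 4 (-1.05 ± 0.44 and -1.04 ± 0.44). *Yap1*, the coactivator that LATS kinases restrain, had an Up site, with 19.7, 15.8 and 15.9 CPM at P10 and 30.7, 22.9 and 25.7 CPM in adults (0.62 ± 0.19, edgeR adjusted p = 0.038), while the start of the gene, at -0.55 on the log2 scale, was not called. The site assigned to the Wnt receptor *Fzd8* was Up (0.93 ± 0.29), although the span listed for *Fzd8* is 738760 bp. The calls of *Fzd8* and of the 2 *Lats2* sites were lost without P10 replicate 3 (0.67 to 1.06), without adult replicate 4, adult replicate 6, P10 replicate 2 or P10 replicate 3 (-1.41 to -0.80) and without adult replicate 4, P10 replicate 2 or P10 replicate 3 (-1.29 to -0.68), in that order. Both *Lats2* calls were also lost with cyclic loess, limma voom and DESeq2.

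Nuclear receptors had 11 sites in 10 genes, with 2 Up and 2 Down. The site in *Nr3c2*, the mineralocorticoid receptor, was among the strongest of all, with 85, 94.4 and 99.1 CPM at P10 and 122, 104 and 126 CPM in adults. Its groups were separate but its rise was small (0.34 ± 0.14 on the log2 scale, edgeR adjusted p = 0.163), and the call was lost without adult replicate 4, adult replicate 6, P10 replicate 1, P10 replicate 2 or P10 replicate 3 (0.27 to 0.42), and with column sums, DESeq2 and a mean count of at least 50. *Rxra*, the partner of many such receptors, had an Up site with overlapping libraries (0.76 ± 0.34), lost without adult replicate 4, P10 replicate 2 or P10 replicate 3 (0.28 to 1.07), and with column sums, cyclic loess, limma voom, DESeq2 and a mean count of at least 50. The estrogen receptor *Esr1* (-0.77 ± 0.25) and *Nr5a2*, which exocrine cells need (-1.05 ± 0.35), had Down sites, and the start of *Nr5a2* fell with it (-1.57). The *Esr1* call was lost without adult replicate 6 or P10 replicate 2 (-1.02 to -0.56), and the *Nr5a2* call without adult replicate 4 or P10 replicate 3 (-1.35 to -0.76).

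Beta cell disallowed genes, which most tissues express and mature beta cells keep low, had 12 sites, with *Yap1* Up and *Acot7*, an acyl-CoA thioesterase, Down (-1.37 ± 0.42 on the log2 scale). The *Acot7* call was lost without P10 replicate 2 (-1.62 to -0.96). The 12 sites in genes of lipid and weaning metabolism had 1 Up and 1 Down. *Abca1*, which exports cholesterol, fell from 11.9, 12 and 10.1 CPM at P10 to 5.87, 5.55 and 5.93 CPM in adults (-0.97 ± 0.24, edgeR adjusted p = 0.00878), with narrow groups.

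**Figure D5:**
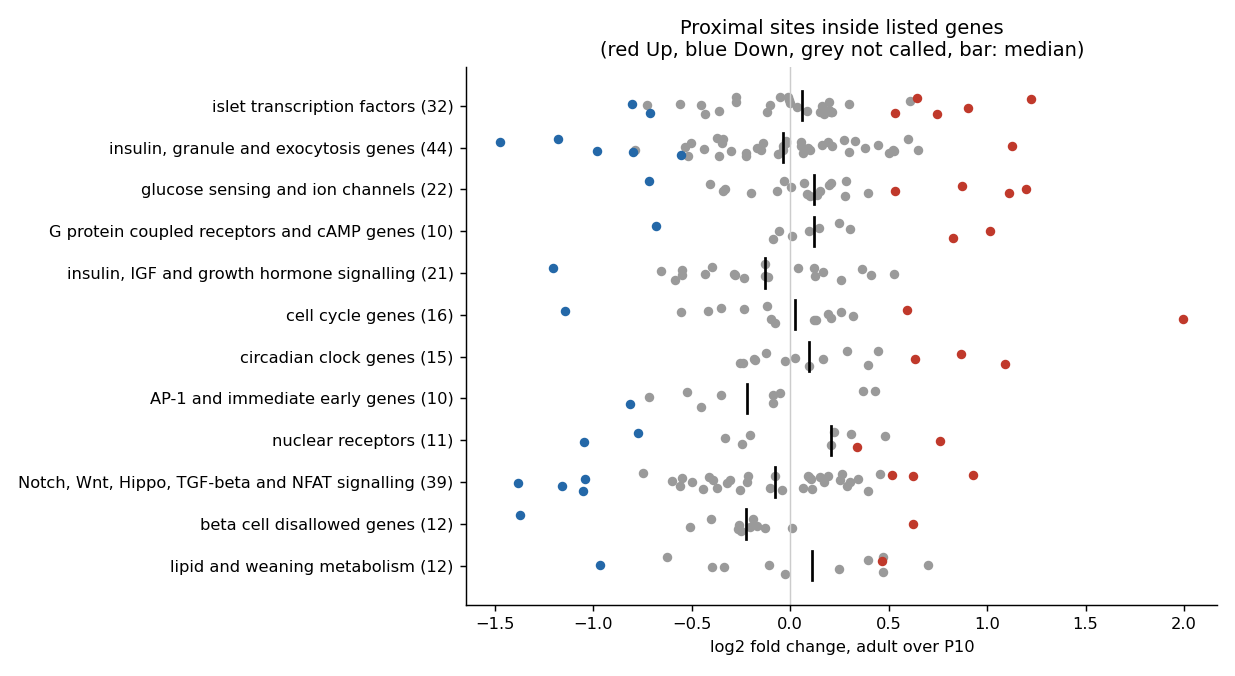
Log2 fold change, adult over P10, of each proximal site inside a gene of 12 lists, with the number of sites in brackets, Up sites in red, Down sites in blue and sites not called in grey. Black bars are medians, from -0.23 in the beta cell disallowed genes to 0.21 in the nuclear receptors, and most sites of every list were not called.

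Of the 3356 genes, 492 held 2 of the sites and 68 held 3 or more, up to 5. In 41 genes 2 or more sites were called, all Up in 28 genes, all Down in 4 and in both directions in 9. *Rbp2*, which binds retinol inside cells, had 4 sites, of which 2 were Up. They lie 3120 and 6106 bp inside the gene, with 6.79, 3.28 and 5.02 CPM and 9.58, 6.42 and 7.77 CPM at P10 against 16.5, 10.5 and 16.2 CPM and 19.7, 17.5 and 17.8 CPM in adults, and log2 fold changes of 1.5 ± 0.27 and 1.2 ± 0.22. Its other sites, at 7188 and 8739 bp, had log2 fold changes of -0.09 ± 0.22 and 0.33 ± 0.21, so that the nearer pair alone passed the test. *Gnao1*, a G protein subunit, had 3 sites with 2 Up (0.96 ± 0.33 and 0.90 ± 0.33), which were lost without adult replicate 6, P10 replicate 2 or P10 replicate 3 (0.77 to 1.16) and without adult replicate 6, P10 replicate 2 or P10 replicate 3 (0.72 to 1.32).

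*Nfil3* had 5 sites, of which the one 8535 bp inside the gene was Up, with 17.6, 10.7 and 10.8 CPM at P10 and 30.1, 23.4 and 17.8 CPM in adults. The lowest adult and the highest P10 value were almost equal there. Its other sites had log2 fold changes of -0.24 to 0.45 and did not pass the test. *Arhgef1* and the gene model *LOC100911937* also had 5 sites each, and none was called. The sites of *LOC100911937* were weak, with at most 4.25 CPM per kb.

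Calls of opposite direction occurred within 1 gene in 9 genes, of which the 4 with the smallest p are given. In *Usp6nl* a Down site (-0.83 ± 0.33 on the log2 scale) and an Up site (0.93 ± 0.25) were separated by 59 bp. The Down site had 8.65, 5.14 and 3.91 CPM at P10 and 4.43, 2.05 and 3.48 CPM in adults, which overlap, and the Up site had 10.6, 4.92 and 8.51 CPM and 18.4, 12.7 and 14.8 CPM. In *Slc25a47*, a mitochondrial carrier of liver, 452 bp lay between a Down site (-1.02 ± 0.38) and an Up site (1.78 ± 0.33) near the gene end. *Ppp1r3a*, a subunit that directs a phosphatase to glycogen, and the chromatin protein *Epc1* also had a site of each kind, 2773 and 6117 bp apart. Of these 8 calls, the Up calls in *Usp6nl*, *Slc25a47* and *Epc1* were kept in all 6 fits without 1 library. The Down call in *Usp6nl* was lost without adult replicate 5 or P10 replicate 1 (-1.12 to -0.45), that in *Slc25a47* without adult replicate 4, adult replicate 6 or P10 replicate 2 (-1.35 to -0.85) and that in *Epc1* without adult replicate 4, P10 replicate 2 or P10 replicate 3 (-1.05 to -0.75). In *Ppp1r3a* the Up call was lost without adult replicate 6 or P10 replicate 2 (0.64 to 1.46) and the Down call without adult replicate 4, adult replicate 6, P10 replicate 2 or P10 replicate 3 (-1.19 to -0.66).

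The sites with the highest CPM did not change much. The first lay in *Rn45s*, the ribosomal RNA precursor, with 162, 202 and 160 CPM in adults and 175, 198 and 160 CPM at P10, or 388 CPM per kb. This gene has many copies in the genome, so that its count is uncertain. *LOC688452* had 118 CPM per kb, *Nr3c2* 119 and *Arrdc3*, an arrestin-like protein, 89.3, and of these only *Nr3c2* was called. The median of the proximal sites inside genes was 14.7 CPM per kb, near the 15 of upstream proximal sites and below the 24.4 of the TSS class.

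Chromosomes differed in the share of Up sites, from 6.80% of 206 sites on chromosome 10 and 7.92% of 101 on chromosome 12 to 24.2% of 128 on chromosome 17 and 28.3% of 99 on chromosome 19. All ACS had 4.48% Up on chromosome 10, 7.12% on chromosome 12, 15.1% on chromosome 17 and 18.6% on chromosome 19, so that the order of these 4 chromosomes was the same for both. Other chromosomes did not keep this order. Chromosome 18 had the highest Up share over all ACS, 19.7%, but 20.5% of its 117 sites here, below chromosomes 17 and 19. On chromosome 11, 23.5% of 132 sites were Up, against 12.8% of all ACS. Chromosome 3 had 8.01% Up and 10.1% Down, against 7.99% and 13.8% of all ACS there.

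Markers of other cell types moved with age over all ACS near them. Summed CPM was higher in adults without overlap over the genes with a site, 8 of 8 for alpha cells (985 to 1108 against 845 to 945), 11 of 11 for endothelial cells (607 to 699 against 560 to 592), 7 of 8 for duct cells (363 to 408 against 332 to 344) and 9 of 10 for mesenchyme (461 to 529 against 443 to 461). For mesenchyme the groups were barely apart, with 460.63 CPM as the lowest adult and 460.54 CPM as the highest P10 value. Over all ACS near the marker genes, the groups overlapped for beta, delta, PP and epsilon, acinar, leukocyte, neural and glial, and erythroid genes. At the gene starts alone, the duct genes were lower in adults (43.1 to 47.2 against 56.6 to 59.4 CPM over 6 genes). The gene starts of delta, PP and epsilon genes were also lower (23.2 to 27.6 against 34.8 to 42.8 over 4 genes), and the 1 leukocyte gene start was higher (26.4 to 36.7 against 15.9 to 17.6). The gene starts of the alpha cell, endothelial and mesenchyme lists overlapped between the ages. *Krt7*, *Acta2*, *Sox10*, *Cd68* and *Ppy* had no site in the table. In whole islets, more cells of a type and a more accessible site in each cell cannot be told apart. The proximal sites inside marker genes were few, with 7 in endothelial genes (1 Up), 3 in duct genes (1 Down), 3 in mesenchyme genes (1 Down), 4 in acinar genes (1 Up and 1 Down) and 2 in alpha cell genes (1 Up). The part of cell composition in the Up and Down sites was not tested.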

How the data were processed

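ATAC-seq was measured in 6 libraries of rat islet cells. The deposited table holds 101941 entries for 101603 distinct sites with counts of Tn5 integrations per site and library, which the authors deposited as raw counts without normalization. Per the methods and the submitters' processing notes, reads were checked with FastQC 0.11.2, aligned to Rn5 with BWA 0.7.13, processed with SAMtools 1.3 and filtered for mapping quality and mitochondrial reads, peaks were called with MACS2 2.1.1 on the pooled libraries of each age and joined, and integrations were counted per library. Removal of duplicate reads is not given in the sources used here. The 5 deposited columns of the authors' own comparison (log fold change, log CPM, F, p-value and FDR) were not used.

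All 101603 sites were fitted with edgeR 4.0.16 (R 4.3.3) by the quasi-likelihood test on age alone with TMM scaling, and p-values were adjusted by Benjamini-Hochberg over all sites. Calls required p below 0.05 and an adjusted p below 0.2, the study's limits. A standard error is the size of the log2 fold change divided by the square root of F. Log2 CPM used a prior count of 2. In simulated counts, a log2 change of 1 was given to 200 of the 101603 sites. The test recovered 39.5% of the changed sites and also called 31 unchanged ones. With so few changed sites, an adjusted p below 0.2 needs a smaller p than in the data, where 18.9% of all ACS were called. The simulation therefore does not give the sensitivity of the calls reported here. The P10 libraries are separate litters and the adult libraries separate rats. Library-level values were compared by exact permutation over the 20 splits of 6 libraries. Of 118 sites without a gene symbol, 112 were named through RefSeq gene identifiers. No genome of the Rn5 build was used, so exon and intron positions and site sequences are not reported here.

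The sites, gene lists and tests were chosen with earlier results of these data known. Sites were named by rule, apart from a few that are not reported here: the 8 Up and 8 Down calls of smallest p with separate groups, the 4 of highest CPM, all sites of the 3 genes with the most sites and of the 3 with the most calls, up to 4 called sites of smallest p per list, and 4 genes with calls in both directions. Alternatives were other scalings (column sums, median of ratios, total reads, cyclic loess), limma voom 3.58.1, DESeq2 1.42.0, filters on low counts, a stricter FDR, other limits of the rule and leaving out each library.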

Additional observations from a re-analysis of the deposited data

How the results depend on the processing

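The calls of 607 Up and 261 Down sites moved by more than 1.5 times in these cases. With column sums as library sizes 425 sites were Down. With total reads 31 were Up and 2402 Down, the median log2 fold change of the sites was -0.84, as it was over all ACS. With an adjusted p limit of 0.05 there were 351 Up and 68 Down. Counting only sites within 5 kb of the start left 248 Up and 133 Down of 1869. Leaving out 1 library gave 375 to 736 Up and 131 to 302 Down, and a median of -0.04 to 0.07. Median-of-ratios size factors, cyclic loess, limma voom, DESeq2, filterByExpr, a mean count of at least 50, autosomes alone, sites listed with 1 gene and genes over 10 kb gave 485 to 609 Up and 213 to 382 Down. No paired analysis was possible because the groups share no replicate number.

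The share of integrations in the sites, adult minus P10, was 0.0787 percentage points and ranged from -0.0236 to 0.212 over the fits without 1 library. The difference in mean log2 CPM from all other ACS, adult minus P10, was 0.03 and ranged from -0.018 to 0.098, and that from distal sites inside genes was -0.02 and ranged from -0.062 to 0.020, so that none of these had a stable direction. The difference from upstream sites (0.07 to 0.10) and the share within 3 kb of the start (-1.97 to -1.49 percentage points) kept their direction in every fit run.

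With total reads as library sizes, the log2 fold change of these Up sites turned negative: -0.018 in *Adcy8*, -0.0054 in the called *Nfil3* site, -0.23 in *Yap1*, -0.26 in *Nr1d2*, -0.090 in *Myt1l*, -0.49 in *Nr3c2*, -0.23 in *Kif11*, -0.10 in *Rxra* and -0.29 in *Glud1*. The *Nr3c2* site was then called Down. Another 15 named Up sites stayed positive with total reads but lost their call. They were in *Kcnk16* (0.03), *Rfx2*, *Kcnn3*, *Kcnk3*, *Adcyap1r1*, *Npas2*, *Scgn* and *Fzd8*, at both called sites of *Rbp2* and of *Gnao1*, and at the Up sites of *Epc1*, *Usp6nl* and *Ppp1r3a*. Uncalled sites with a positive log2 fold change became Down in *LOC688452* (-0.66), *Gnao1* (-0.71), *Nfil3* (-0.81) and *Arrdc3* (-0.80). Uncalled sites with a negative one also became Down, among them those in *Rn45s* (-0.85) and *Lats2* (-1.28 and -1.13). Of the 61 called sites named here, 39 kept their call in all 6 fits without 1 library. Apart from total reads, 7 called sites lost their call under another scaling or tool. These were *Spock3* (DESeq2), both *Lats2* sites (cyclic loess, limma voom, DESeq2), *Nr3c2* (column sums, DESeq2), *Kif11* (column sums, cyclic loess), and *Rxra* and *Glud1* (column sums, cyclic loess, limma voom, DESeq2). The cause of these changes was not tested, apart from the smaller number of sites within 5 kb, which by its construction lowers both counts.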
